A study of Mus musculus with 12 samples.

Results

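The integrated stress response genes described here are 10 transcripts of the ATF4 and CHOP pathway, chosen by symbol (Atf4, Ddit3, Chac1, Trib3, Asns, Sesn2, Ddit4, Atf5, Ppp1r15a and Eif2ak3) out of 25655 genes in the deposited count tables. All 10 were found and all 10 passed the filter on low counts. RNA was taken from the whole retina of C57BL/6J mice (C57BL/6 in the strain label), 8 to 10 weeks of age by the age label, 2 days after optic nerve crush (ONC, a pinch of the optic nerve of the left eye behind the eyeball that cuts the axons of retinal ganglion cells, RGCs). All groups carried the crush and received 1 intravitreal injection after it. The groups were PBS, the vehicle control, then fluvastatin, a statin (a blocker of the sterol synthesis enzyme HMG-CoA reductase), then MBV, matrix-bound nanovesicles prepared from the extracellular matrix of porcine urinary bladder, and last both agents together. Each group had 3 samples, and the combined treatment was not analysed here, so the values below come from 9 libraries with 21349516 to 30992040 counts on genes. No retina without a crush was part of the groups, so the values do not show how ONC itself moved these genes. Whether a sample was 1 retina or a pool was not stated, and p-values measure only the spread between these samples.

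The integrated stress response is a shared brake on protein synthesis. Kinases that sense different stresses, among them PERK (encoded by Eif2ak3) in the endoplasmic reticulum (ER), phosphorylate the translation factor eIF2, which lowers general translation while the mRNAs of Atf4 and a few others are translated more. ATF4 then induces genes of amino acid supply and redox balance and, with its partner CHOP (Ddit3), genes linked to cell death, while GADD34 (Ppp1r15a) takes the phosphate off eIF2 and closes the loop. In RGCs, axon injury is known to switch on this pathway together with DLK, a kinase that carries the injury signal to the cell body. Since the first step acts on translation, mRNA levels show only part of the pathway's activity, and in whole retina a change in the share of a cell type and a change of RNA per cell cannot be told apart.

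ATF4 binds DNA at the C/EBP-ATF response element (CARE), searched here as TGATGNAA on both strands in 300-base RefSeq promoter windows (250 bases before to 50 after the gene start, build GRCm38.p6). A window was found for all 10 genes, and Atf5 had 2. The element occurred in the windows of Chac1, Trib3 and Asns, 3 of 10 genes (11 windows), against 3.97% of 32851 windows of all genes. The 10 genes were chosen as ATF4 and CHOP pathway genes, so these shares carry no test of the element. A cAMP response element, TGACGTCA, occurred in the window of Ppp1r15a alone, against 1.79% of all windows. The ER stress element, searched by its full consensus, occurred in no window of the 10 genes and in 0.119% of all windows. The stretches around the 4 matches are shown because they hold the only such letters in these windows, 5′ to 3′ on the strand of the gene, with the match in capitals. The match of Trib3 lies 14 to 21 bases after the start, and the others lie before it.
Chac1, chr2:119351017-119351092, plus strand: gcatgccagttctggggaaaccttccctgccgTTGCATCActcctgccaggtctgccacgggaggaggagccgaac
Trib3, chr2:152344035-152344110, minus strand: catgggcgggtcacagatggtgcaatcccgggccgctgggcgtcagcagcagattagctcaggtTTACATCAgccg
Asns, chr6:7693210-7693284, minus strand: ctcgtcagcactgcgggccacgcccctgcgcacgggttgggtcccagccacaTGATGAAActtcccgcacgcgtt
Ppp1r15a, chr7:45526269-45526343, minus strand: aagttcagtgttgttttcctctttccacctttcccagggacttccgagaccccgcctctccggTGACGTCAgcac
Of the 3 genes with a CARE match, Chac1 and Trib3 were higher with MBV than with PBS and Asns was not, as described below. Of the genes without a CARE match, Atf4, Ddit3, Atf5, Sesn2 and Ppp1r15a were higher with MBV too, and Ddit4 and Eif2ak3 were not. A match describes these letters only, and binding was not measured.

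Rlbp1 and Rbpms, which mark Müller glia and RGCs, were present in every library, at 166 to 223 and 17.4 to 25.5 CPM (the count of a gene relative to the library size after TMM scaling, the unit of every level below unless it is given per kb). The labels carry 2 sets of library numbers. PBS lies in one set and fluvastatin and MBV in the other, so each agent's difference from PBS cannot be told apart from the set, and only the comparison of MBV to fluvastatin lies within 1 set. Across all genes, the median of the highest decile by GC content minus that of the lowest decile, as log2 deviation from the mean of the libraries, was -0.24 to -0.16 in PBS and 0.08 to 0.16 in the other 6 libraries. The GC content of the 10 genes, over their joined annotated exons, runs from 46.7% in Asns to 60.2% in Atf5. The fold changes were therefore also computed with each library's GC trend taken out, an alternative chosen after seeing the data.

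With fluvastatin, 3 of the 10 genes rose compared to PBS (Atf4, Ddit3 and Atf5), 0 fell, and 24.8% of all genes tested passed in that comparison, 12.5% higher and 12.3% lower, at a false discovery rate (FDR) under 0.05. With MBV, 7 rose (Atf4, Ddit3, Atf5, Chac1, Trib3, Sesn2 and Ppp1r15a), 1 fell (Ddit4) and Asns and Eif2ak3 did not pass, against 34.1% of all genes, 17.4% higher and 16.7% lower. The median log2 fold change of the 10 genes was 0.16 for fluvastatin and 0.33 for MBV, while that of all genes was 0 and 0.014. The groups did not overlap for 5 of the 10 genes with fluvastatin and 7 with MBV, against 43.1% and 48.9% of all genes. Both comparisons share the PBS libraries. With 1 library left out, the fluvastatin count was 0 without PBS 1 or PBS 2, 1 without fluvastatin 2 (Ddit4, lower, with none of the 3 that rose) and 2 without fluvastatin 3. The MBV count was 2 without PBS 1, PBS 2 or MBV 2, 4 without MBV 1, 5 without PBS 3 and 8 without MBV 3. With the GC trend taken out, 3 genes passed with fluvastatin (Ddit3 and Atf5 higher, Ddit4 lower) and 4 with MBV (Atf4, Ddit3 and Atf5 higher, Ddit4 lower).

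Atf4, the transcription factor at the centre of the pathway (chr15:80139385-80141742 in GRCm39, plus strand), was higher with both agents. It stood at 179, 178 and 186 CPM in the PBS libraries, at 211, 217 and 214 with fluvastatin, and at 248, 246 and 211 with MBV. No treated library overlapped the PBS libraries, while MBV 3 fell among the fluvastatin libraries. Compared to PBS, Atf4 was 1.18-fold higher with fluvastatin (log2 0.24 ± 0.058 SE, FDR = 0.0148) and 1.3-fold higher with MBV (log2 0.38 ± 0.058 SE, FDR = 0.00122), by edgeR's quasi-likelihood test over 15240 genes. The fluvastatin call was lost without PBS 1 (FDR = 0.0592), PBS 2 (FDR = 0.051) or fluvastatin 2 (FDR = 0.0527) and with the GC trend taken out (log2 0.14, FDR = 0.144). The MBV call passed in 6 of 6 fits that left out 1 library and with the GC trend taken out (log2 0.24, FDR = 0.0156).

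Atf5, a related factor whose mRNA is also translated more when eIF2 is phosphorylated and which serves the mitochondrial stress response (chr7:44461680-44466082, minus strand), showed the largest fold of the 10 genes with either agent. It stood at 45.3, 40.6 and 45.2 CPM with PBS, at 58.4, 96.7 and 100.6 with fluvastatin, and at 98.6, 142.8 and 71.8 with MBV. Every treated library was above every PBS library, and the treated libraries spread more widely, with an SD of 23.3 CPM for fluvastatin and 35.8 for MBV beside 2.68 for PBS (n = 3 each). The gene was 1.95-fold higher with fluvastatin (log2 0.97, 95% interval 0.42 to 1.51, FDR = 0.0182) and 2.39-fold higher with MBV (log2 1.26, 95% interval 0.71 to 1.80, FDR = 0.00385). The fluvastatin call was lost without PBS 1 (FDR = 0.0552), PBS 2 (FDR = 0.0609), fluvastatin 2 (FDR = 0.0655) or fluvastatin 3 (FDR = 0.0627), and the MBV call passed without any 1 library. Both calls passed with the GC trend taken out, at log2 0.83 (FDR = 0.0389) and 1.08 (FDR = 0.00863). Atf5 overlaps Nup62 and Il4i1 on the other strand, and the strand setting of the counting is not given in the sources used here, so reads of overlapping genes may not be separated. Nup62, a nuclear pore gene, stood at 24.0 to 31.6 CPM over the 9 libraries, with a log2 difference from PBS of 0.03 (FDR = 0.764) for fluvastatin and 0.23 (FDR = 0.0245) for MBV.

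Ddit3 encodes CHOP, the factor most often tied to cell death under prolonged stress (chr10:127126643-127132157, plus strand). Its levels were 26.5, 25.6 and 28.8 CPM with PBS, 30.9, 35.2 and 30.7 with fluvastatin, and 30.4, 34.8 and 33.5 with MBV. The treated libraries all lay above the PBS libraries and the treatments overlapped each other. The gene was 1.2-fold higher with fluvastatin (log2 0.26, FDR = 0.0317) and 1.22-fold higher with MBV (log2 0.29, FDR = 0.0158). Both calls passed with the GC trend taken out, at log2 0.25 (FDR = 0.0438) and 0.27 (FDR = 0.0234). The GC content used for Ddit3 (48.9%) was taken over 5271 bases of joined exons in 2 blocks, nearly the whole span of the gene. It may differ from that of the counted mRNA, which limits this check for Ddit3. Without PBS 1, PBS 2 or fluvastatin 2 the fluvastatin call was lost (FDR = 0.103, 0.104 and 0.111). Likewise the MBV call was lost without PBS 1, PBS 2 or MBV 2 (FDR = 0.0647, 0.0591 and 0.0647). The tables carry a second Ddit3 entry with 0 counts in every library. Mars1, a tRNA synthetase gene that overlaps Ddit3 on the other strand, stood at 48.1 to 66.9 CPM over the 9 libraries. It was itself higher with fluvastatin (log2 0.27, FDR = 0.0438) and MBV (log2 0.30, FDR = 0.0235). As the strand setting is not given, the Ddit3 counts may hold Mars1 reads, and their part in the Ddit3 differences was not tested.

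**Figure D1:**
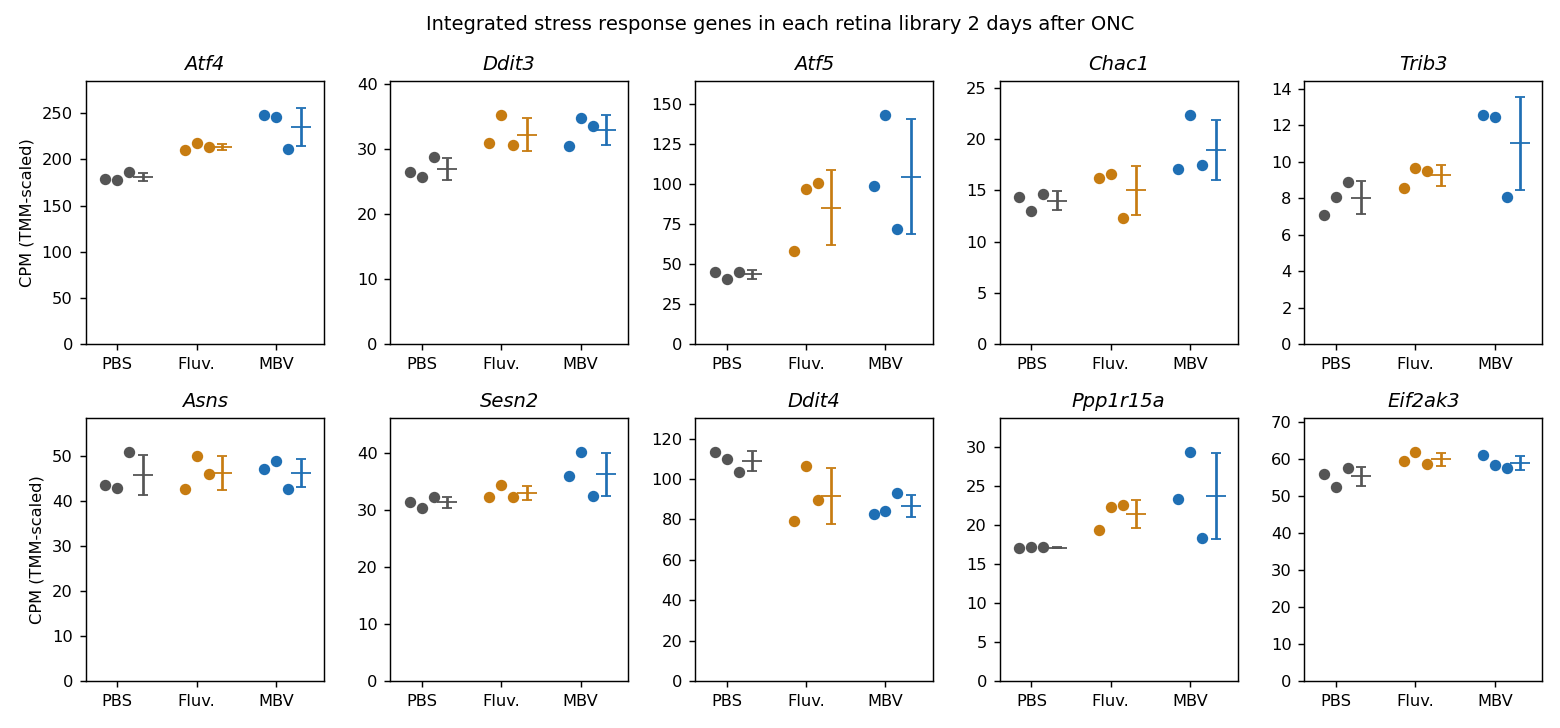
Level of each of the 10 genes (y axis, TMM-scaled CPM, from 0) in the 3 PBS, 3 fluvastatin (Fluv.) and 3 MBV libraries; points are libraries, and the bar beside each group is its mean ± SD (n = 3). Atf5 sits at 40.6 to 45.3 CPM with PBS and at 58.4 to 142.8 in the treated libraries, while Ddit4 is the gene that lies lower in the MBV libraries than in the PBS libraries.

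Among the targets of ATF4 and CHOP, Chac1, which degrades glutathione (chr2:119181710-119184862, plus strand), stood at 14.4, 13.0 and 14.7 CPM with PBS, 16.2, 16.6 and 12.3 with fluvastatin, and 17.0, 22.3 and 17.5 with MBV. The MBV libraries lay above all 6 others, and the fluvastatin libraries spanned the PBS range. Chac1 rose with MBV by log2 0.43 compared to PBS (1.35-fold, FDR = 0.0285), and with fluvastatin the difference was 0.10 (95% interval -0.19 to 0.40, FDR = 0.603). The MBV call was lost without PBS 1 (FDR = 0.0733), PBS 2 (FDR = 0.0922) or MBV 2 (FDR = 0.113) and with the GC trend taken out (log2 0.28, FDR = 0.116).

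Trib3, a pseudokinase that CHOP and ATF4 induce and that restrains ATF4 and AKT (chr2:152179342-152185952, minus strand), had the lowest CPM of the 10 genes, with 188 to 343 counts per library. It measured 7.10, 8.04 and 8.90 CPM with PBS, 8.59, 9.64 and 9.51 with fluvastatin, and 12.5, 12.4 and 8.07 with MBV. MBV 1 and MBV 2 were above every other library and MBV 3 lay inside the PBS range. Trib3 passed the test with MBV (log2 0.46, 1.38-fold, FDR = 0.0475) and not with fluvastatin (log2 0.21, 95% interval -0.15 to 0.57, FDR = 0.37). The MBV call stood close to the threshold: it was lost without PBS 1, PBS 2, PBS 3, MBV 1 or MBV 2 (FDR = 0.168, 0.103, 0.05, 0.163 and 0.161), with median-ratio scaling (FDR = 0.0501), in the fit of PBS and MBV alone (FDR = 0.0806) and with the GC trend taken out (log2 0.32, FDR = 0.161).

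Asns, asparagine synthetase and a standard readout of ATF4 under amino acid shortage (chr6:7675169-7693254, minus strand), did not follow Atf4. It measured 43.6, 43.0 and 51.0 CPM with PBS, 42.6, 50.2 and 46.0 with fluvastatin, and 47.1, 48.9 and 42.8 with MBV. The 3 groups overlapped fully. The log2 difference from PBS was 0.01 with a 95% interval of -0.17 to 0.20 for both fluvastatin (FDR = 0.914) and MBV (FDR = 0.915).

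Sesn2 and Ddit4 encode stress-induced proteins that restrain mTORC1, the kinase complex that drives growth, and they went in opposite directions with MBV. Sesn2 (chr4:132219343-132237812, minus strand) stood at 31.4, 30.3 and 32.3 CPM with PBS, 32.2, 34.4 and 32.2 with fluvastatin, and 36.0, 40.1 and 32.5 with MBV. MBV 3 lay just above the highest PBS library. The gene was higher with MBV by log2 0.21 (FDR = 0.0497), and the difference for fluvastatin was 0.07 (FDR = 0.495). The MBV call rested on the threshold: it was lost with both other scalings, without the count filter, with DESeq2 (FDR = 0.0618), in the fit of PBS and MBV alone (FDR = 0.0814), in 5 of the fits that left out 1 library and with the GC trend taken out (log2 0.08, FDR = 0.418). Those 5 fits were without PBS 1, PBS 2, PBS 3, MBV 1 or MBV 2, with FDRs of 0.136, 0.137, 0.0705, 0.098 and 0.2, and the log2 difference was 0.12 without MBV 2.

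Ddit4 (chr10:59785491-59787656, minus strand), which glucocorticoids and hypoxia also induce, stood at 113.3, 109.7 and 104 CPM with PBS, 79.2, 106.6 and 89.6 with fluvastatin, and 82.5, 84.2 and 92.9 with MBV. All MBV libraries were below the PBS libraries, while fluvastatin 2 lay inside the PBS range. It fell by 0.33 on the log2 scale with MBV (1.26-fold lower, FDR = 0.0218), and fluvastatin gave -0.25 (FDR = 0.0812). The MBV call was lost without PBS 1 (FDR = 0.0662), PBS 2 (FDR = 0.0576), MBV 1 (FDR = 0.0759) or MBV 2 (FDR = 0.0605), and the fluvastatin difference passed without fluvastatin 2 (log2 -0.37, FDR = 0.0136). With the GC trend taken out Ddit4 was further from PBS, at -0.49 for MBV (FDR = 0.00539) and -0.37 for fluvastatin (FDR = 0.0292).

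Ppp1r15a (chr7:45172340-45175692, minus strand) encodes GADD34, the inducible subunit of the eIF2 phosphatase. It was even among the PBS libraries, at 17.1, 17.2 and 17.2 CPM, and stood at 19.4, 22.3 and 22.6 with fluvastatin and at 23.4, 29.4 and 18.4 with MBV. All treated libraries lay above PBS. The difference was log2 0.47 for MBV (1.38-fold, FDR = 0.0252) and 0.32 for fluvastatin (95% interval 0.01 to 0.63, FDR = 0.116). The MBV call was lost without PBS 1, PBS 2, PBS 3, MBV 1 or MBV 2 (FDR = 0.0768, 0.0639, 0.056, 0.059 and 0.0842), where its log2 difference was 0.28 without MBV 2 and 0.46 to 0.48 without any of the other 4, and with the GC trend taken out (log2 0.33, FDR = 0.0973). Tulp2, which overlaps Ppp1r15a on the other strand, stood at 0.129 to 0.878 CPM. In a fit of PBS and fluvastatin alone the fluvastatin difference passed (log2 0.32, FDR = 0.0165), with an SE of 0.0746 beside 0.138 in the main fit. That fit takes its spread from these groups alone, and the PBS libraries had an SD of 0.0496 CPM. Counts of 453 to 527 per PBS library vary by more than this in sampling alone.

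Eif2ak3 (chr6:70821499-70882229, plus strand), the PERK kinase itself, passed with neither agent. It measured 55.9, 52.7 and 57.6 CPM with PBS, 59.4, 62.0 and 58.7 with fluvastatin, and 61.2, 58.4 and 57.6 with MBV. The fluvastatin libraries lay above PBS and the MBV libraries touched the PBS range. The log2 difference was 0.12 for fluvastatin (95% interval 0.01 to 0.22, FDR = 0.108) and 0.09 for MBV (95% interval -0.02 to 0.20, FDR = 0.166).

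**Figure D2:**
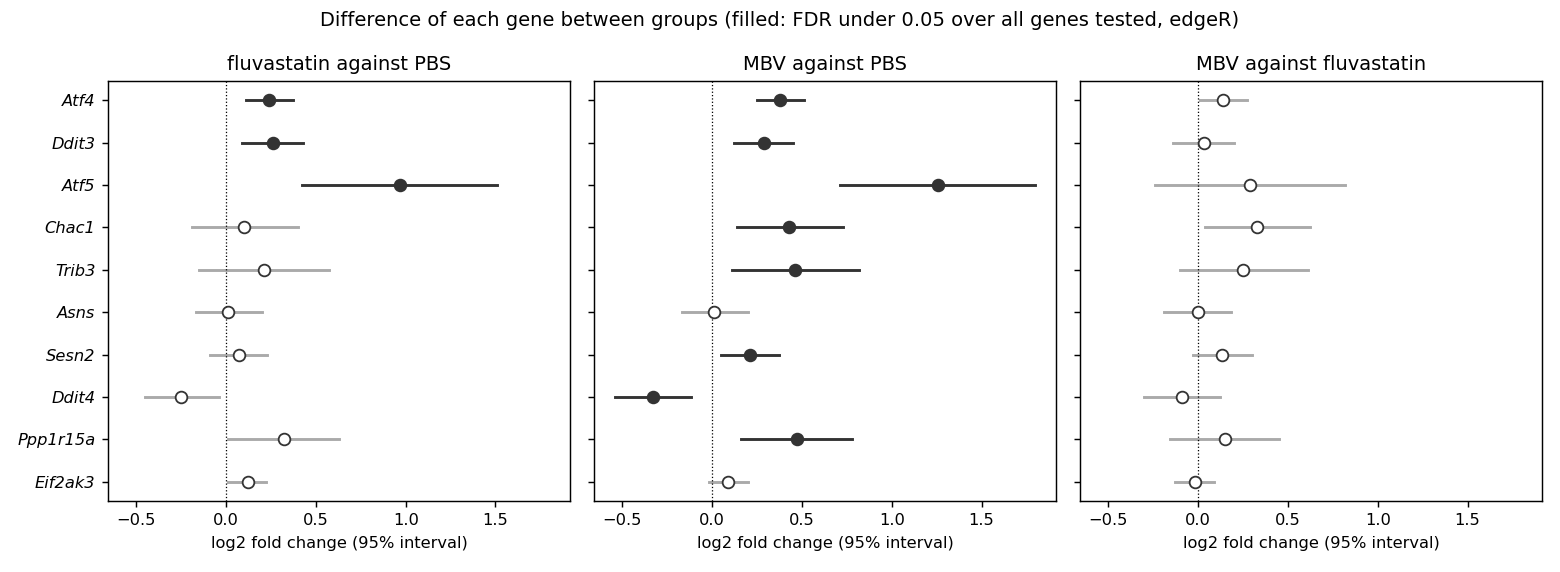
Log2 fold change (x axis) of each gene with its 95% interval in the 3 comparisons; filled points have an FDR under 0.05 over all genes tested. With MBV against PBS 8 points are filled, with fluvastatin against PBS 3, and with MBV against fluvastatin none.

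**Figure D3:**
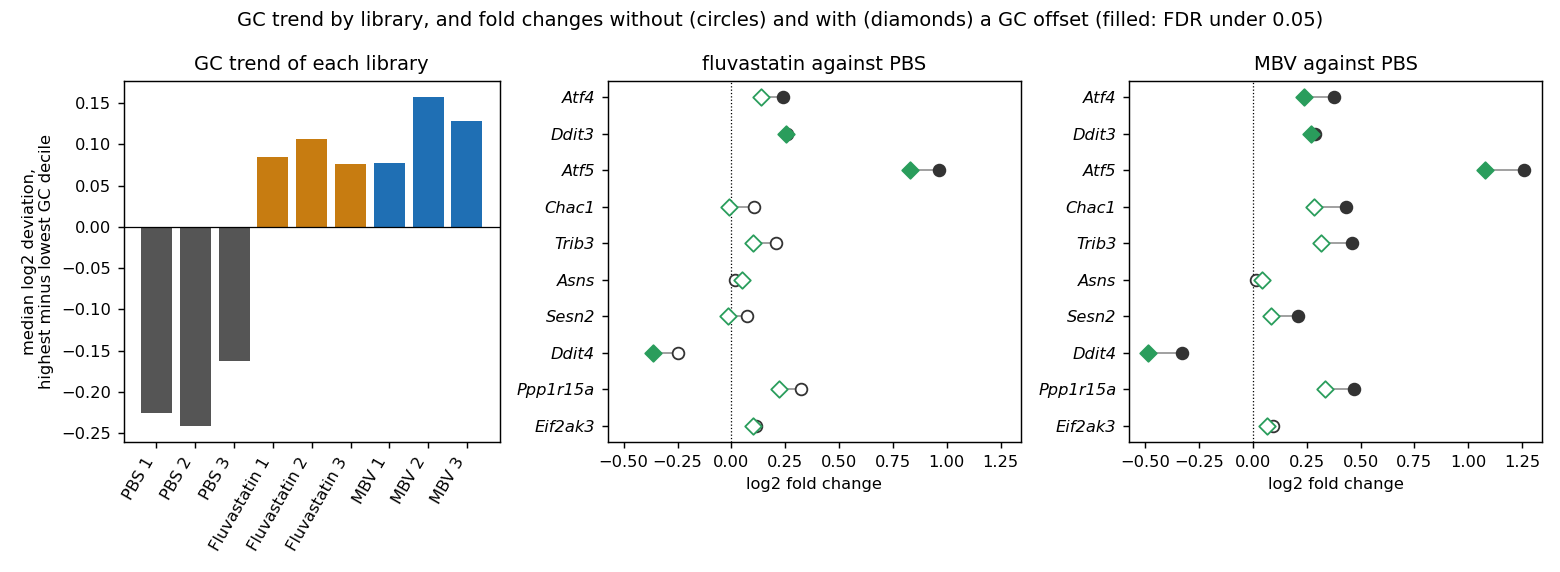
Left, the GC trend of each library (median log2 deviation of the highest minus the lowest decile of genes by GC content); centre and right, the log2 fold change of each gene against PBS from the TMM-scaled fit (circles) and with the GC trend taken out (diamonds), filled where the FDR is under 0.05. The PBS bars are below 0 and the other 6 above it, and Ddit4 moves further below 0 with the trend taken out.

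Within the library set that fluvastatin and MBV share, no gene of the 10 passed in MBV against fluvastatin, where 0.105% of all genes did (16 of 15240). At an unadjusted p under 0.05, 2 of the 10 genes did, against 15.4% of all genes, and DESeq2 called none of the 10. Those 2 were Chac1, higher with MBV by log2 0.33 (95% interval 0.04 to 0.62, FDR = 0.282), the only 1 of the 10 genes whose groups did not overlap (18.5% of all genes did not), and Atf4, higher by 0.14 (95% interval 0.01 to 0.27, FDR = 0.301). Without MBV 3, Atf4 passed (log2 0.20, FDR = 0.0433). For Atf5 the difference was 0.29, with an interval of -0.24 to 0.82, and for Trib3 0.25, with an interval of -0.10 to 0.61. The intervals were narrower for Eif2ak3 (-0.13 to 0.09) and Asns (-0.19 to 0.18).

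The single libraries did not fill the same place for every gene. MBV 2 held the highest level for 4 of the 10 genes and PBS 2 the lowest for 5. The mean of log2(CPM + 0.5) over the 10 genes was 5.14 to 5.25 in the PBS libraries, 5.28 to 5.50 with fluvastatin and 5.34 to 5.66 with MBV, and MBV 3 was the lowest of the MBV libraries. Per kilobase of annotated exon, joined over all transcripts, Atf4 stood highest with PBS, at 76.8 ± 1.97 CPM per kb (SD, n = 3). Ddit4 (57.9 ± 2.63) and Atf5 (20.3 ± 1.27) followed, and the other 7 genes lay between 3.02 for Trib3 and 8.79 for Eif2ak3. Neighbours in that lower range, such as Eif2ak3 and Chac1 (8.55 ± 0.548), did not differ beyond their spread. With MBV, Atf5 (48.5 ± 16.7) stood beside Ddit4 (46.0 ± 2.95), within its spread. The exon lengths join all annotated transcripts, which lowers the value per kb of genes with a long minor transcript. The joined exons of Ddit3 came to 5271 bases in 2 blocks, nearly the whole span of the gene, and those of Asns to 7143 bases. The places of Ddit3 and Asns in this order therefore rest on those lengths and may be too low.

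Over the 9 libraries and 13739 genes outside the lists, the genes whose log2 levels followed Atf4 most closely were Mypop (Pearson r = 0.989), Col4a1 (0.987) and Smarcd1 (0.98). For Ddit3 they were Mast4 (0.979), Pdlim7 (0.977) and Cep170b (0.975), and for Chac1 they were Ackr1, Med8 and Sec31b, all at 0.933. Col4a1, a basement membrane collagen, stood at 33.1 to 41.1 CPM with PBS, 54.7 to 58.1 with fluvastatin and 56.7 to 86.9 with MBV. The 9 points fall into 3 groups and 2 library sets, so these values describe shared steps between groups and carry no test.

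Other genes of the pathway were counted by lists in the main fit alone, as those past an FDR of 0.05, beside the 24.8% of all genes that passed with fluvastatin and the 34.1% with MBV. A count near those shares says nothing particular about its list. Of 14 genes for eIF2 kinases, phosphatase subunits and the eIF2 and eIF2B complexes, 0 passed with fluvastatin, and 1 rose and 3 fell with MBV. The gene that rose was Ppp1r15a, already described, and those that fell were Eif2s3x (log2 -0.22), Eif2b5 (-0.21) and Eif2s1 (-0.18), subunits of eIF2 and of its exchange factor. Of 7 partners of ATF4 and other stress factors, 0 passed with fluvastatin and Nupr1, a small stress-induced chromatin protein, rose with MBV by log2 1.92 (FDR = 0.0179). Nupr1 stood at 23.4 ± 15.2 CPM with MBV and 6.17 ± 2.34 with PBS (SD). With fluvastatin this list reached log2 1.25 without a gene passing. In MBV against fluvastatin none of the 7 passed, so the rise is not shown to be particular to MBV.

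Of 12 ATF4 targets in amino acid synthesis and one-carbon metabolism, 7 rose and 1 fell with MBV, and 4 rose and 1 fell with fluvastatin. Pycr1, which completes proline synthesis, rose by log2 1.06 with fluvastatin (FDR = 0.0045) and 1.14 with MBV (FDR = 0.00199). Shmt2, the mitochondrial enzyme that feeds serine carbon into the folate cycle, rose by 0.34 and 0.62, and Gpt2, a mitochondrial alanine transaminase, by 0.62 with MBV. Psph, the last step of serine synthesis, was lower with both, by -0.33 and -0.26. The median of this list was 0.17 for fluvastatin and 0.44 for MBV.

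Of 9 amino acid transporters, 4 rose and 0 fell with MBV, among them Slc7a5, which imports leucine (log2 0.61, FDR = 0.0121), and Slc1a4 (0.42). With fluvastatin 1 rose, Slc6a9, and 1 fell, Slc7a11, the cystine importer (-0.81, FDR = 0.0405). Slc6a9, which rose with MBV too, is also counted among the bipolar, amacrine and horizontal markers below. Of 12 aminoacyl-tRNA synthetases, which charge tRNAs and are ATF4 targets, 6 rose and 0 fell with fluvastatin and 5 rose and 1 fell with MBV, among them Nars (0.21 and 0.14) and Cars (0.38 and 0.36). Among 11 secreted and other targets of ATF4 or CHOP, 2 rose with MBV, Stc2 (0.40) and Eif4ebp1, a repressor of cap-dependent translation (1.12, FDR = 0.025), and 2 fell, Bcl2l11, the death protein BIM (-0.34, FDR = 0.00194), and Klhl24 (-0.21). With fluvastatin Klhl24 alone passed, at -0.25.

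The other branches of the ER stress response run through XBP1 and ATF6 and raise chaperones. Of 20 such genes, 10 rose and 0 fell with fluvastatin, and 6 rose and 2 fell with MBV. Calr, Hsp90b1 and Hyou1, chaperones of the ER lumen, rose by log2 0.64, 0.41 and 0.36 with fluvastatin and by 0.54, 0.30 and 0.23 with MBV. Selenos (-0.45) and Dnajc3 (-0.19) fell with MBV. The summed level of the list was 1770 to 1810 CPM with PBS, 2030 to 2300 with fluvastatin and 1970 to 2120 with MBV, so every treated library lay above PBS. In MBV against fluvastatin none of these 20 genes passed, with a median of -0.11.

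**Figure D4:**
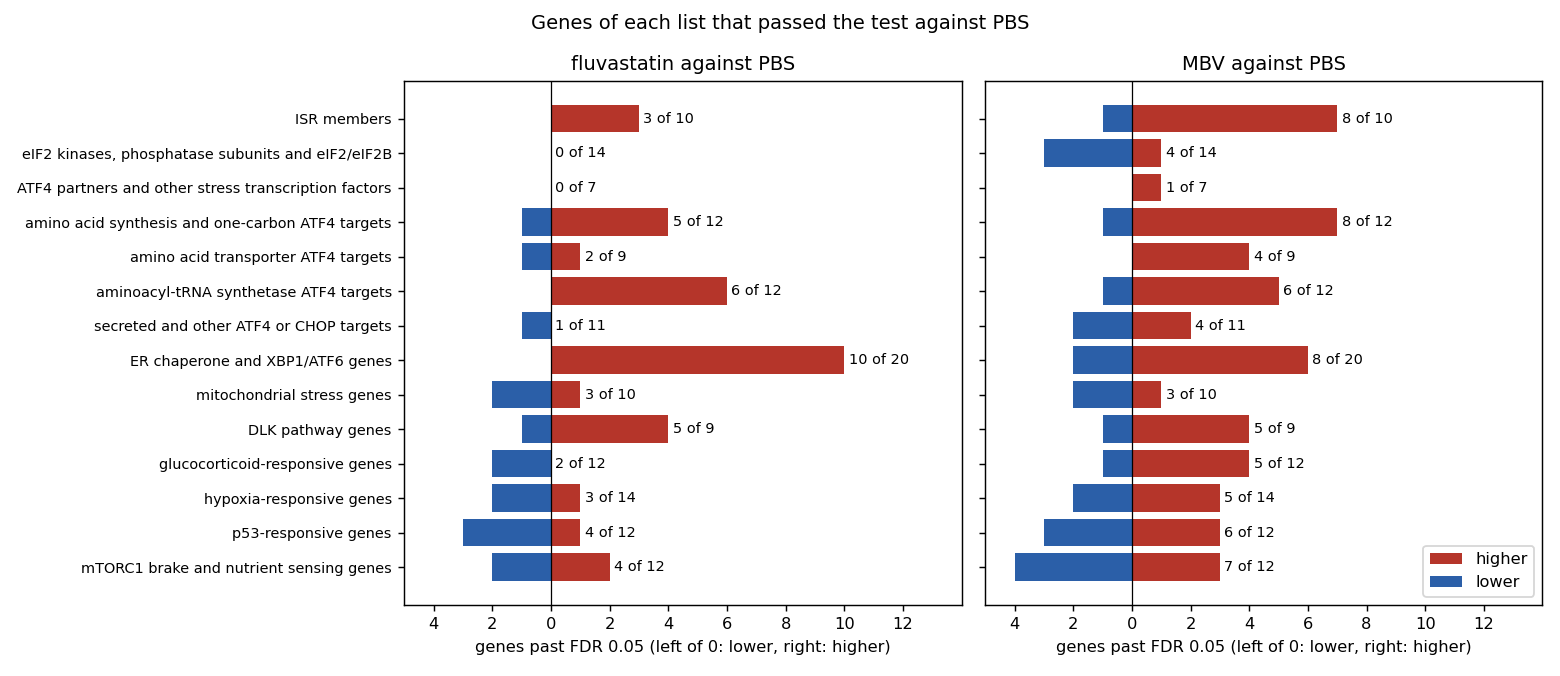
Number of genes of each of 14 pathway lists that passed an FDR of 0.05 against PBS (x axis, right of 0 higher, left of 0 lower), with the passed and tested genes written beside each bar. All counts are from the main fit. With MBV, 4 of the 10 stress genes passed with the GC trend taken out, and 2 did without PBS 1, PBS 2 or MBV 2. The other lists were not counted under those settings, so the order of the lists was not tested there. ER chaperone genes make the longest bar with fluvastatin (10 of 20), and the integrated stress response genes and the amino acid synthesis targets (8 of 10 and 8 of 12) have the highest shares with MBV among the 14 pathway lists drawn here, which leave out the cell markers; Atf5, Ppp1r15a, Sesn2, Ddit4 and some other genes belong to more than 1 list.

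Markers of other cells were counted in the same way, beside 24.8% of all genes with fluvastatin and 34.1% with MBV. All 11 lens genes tested were higher with MBV than with PBS (median log2 5.28), with a summed level of 1.40 to 7.62 CPM in PBS, 3.18 to 26.8 with fluvastatin and 74.6 to 225 with MBV. The highest lens level was in MBV 1, while MBV 2 held the highest mean of the 10 stress genes. MBV 1, MBV 2 and MBV 3 had lens sums of 225, 79.9 and 74.6 CPM and stress means of 5.50, 5.66 and 5.34. Fluvastatin 2 was the highest of its group in both, at 26.8 CPM and 5.50. Among the PBS libraries, PBS 3 had the lowest lens sum (1.40 CPM) and the highest stress mean (5.25). Markers of monocytes and neutrophils summed to 13.3 to 30.7 CPM in 8 libraries and to 96.7 in MBV 3, the MBV library with the lowest mean of the stress genes. Of the 10 markers of pigment epithelium and melanocytes, 6 were lower with each agent and 1, Ttr, was higher with fluvastatin. The list summed to 348 to 379 CPM with PBS, 245 to 281 with fluvastatin and 220 to 269 with MBV. Most of each sum was Rlbp1, which is also in the Müller glia list and was 1 of the 6 lower with each agent. Rlbp1 stood at 214 to 223 CPM with PBS, 173 to 184 with fluvastatin and 166 to 170 with MBV. Of 12 RGC markers, 4 were higher with fluvastatin and 1 with MBV, and none was lower. Of 11 photoreceptor markers, 4 were lower with MBV, and with fluvastatin 0 were lower and 1 was higher. These counts are small. Of all genes, 12.5% were higher with fluvastatin and 16.7% were lower with MBV. All 12 RGC markers lay above 0 with fluvastatin (median log2 0.29) and 10 did with MBV (0.17). In MBV against fluvastatin 0 of the 12 lay above 0 (median -0.20), and none passed. Of the 11 photoreceptor markers, 4 lay above 0 with fluvastatin (median -0.04) and 2 with MBV (-0.10). The part of these marker levels in the levels of the 10 genes was not tested.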

How the data were processed

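Total RNA of the whole retina was sequenced as paired reads from TruSeq libraries. The values are raw counts per gene, deposited by the authors with no normalization after alignment to GRCm39 and counting in CLC Genomics Workbench. Comparison columns in the same tables (fold changes, p-values) were not used. In the table of the combined treatment, 6 count columns name no library and were not used, so that group and its planned comparisons were not analysed. Ddit3 was matched by its Ensembl identifier.

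The 9 libraries entered 1 fit in edgeR 4.0.16 (R 4.3.3) with TMM scaling, glmQLFit and glmQLFTest, and Benjamini-Hochberg adjustment over the 15240 genes with more than 10 counts in at least 2 libraries of a group. CPM are counts relative to the TMM-scaled library size. The common coefficient of variation was 8.77%. DESeq2 1.42.0 and other scalings, filters and sets of libraries were alternatives. In simulated counts for MBV against PBS over 15240 genes, 200 genes were changed per draw. Of these, 16 to 22 of 50 genes changed by log2 0.35 and 36 to 45 of 50 changed by log2 1.0 were recovered. In the data 5200 genes passed, so the same FDR stood at a looser p-value there. The recovered shares therefore do not give the power of the reported test.

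The genes and lists were chosen with earlier results of these data known. Named genes are the 10 members and, of each other list, at most the 3 higher and the 3 lower with the smallest FDR under 0.05. The genes most like Atf4, Ddit3 and Chac1 were the 3 highest by Pearson r among genes with a mean of at least 1 CPM. Promoters are from RefSeq (GRCm38.p6) and exon lengths from GENCODE. Replicate libraries differed by more than sampling noise (chi-square per gene of at least 3.476). Some marker genes are not reported here and were left out of the counts of their lists.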

Additional observations from a re-analysis of the deposited data

How the results depend on the processing

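Scaling by median ratios or total counts, no or a stricter count filter, DESeq2, fits of 2 groups, and the GC alternative (added after seeing the data) kept the direction of every called difference from PBS among the 10 genes. Of 210 values under the planned settings other than leaving out a library, 197 kept direction and call, as did 129 of 180 with a library left out and 22 of 30 with the GC trend taken out. For all genes, MBV against fluvastatin gave 16 genes, and 38 without the filter, 264 with DESeq2 and 5 in the fit of the 2 groups. The GC alternative gave 2484 genes for fluvastatin against PBS (3774 otherwise) and 4 of the 10 genes for MBV against PBS. Leaving out 1 library gave 2083 to 3704 genes for fluvastatin against PBS, 3361 to 5202 for MBV against PBS and 6 to 162 for MBV against fluvastatin, and 0 to 3, 2 to 8 and 0 to 1 of the 10 genes. The cause of these shifts was not tested.

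Signs turned only among differences that did not pass. In MBV against fluvastatin total counts gave 0.0285 for Asns and 0.0058 for Eif2ak3. The GC alternative gave -0.0109 for Chac1 and -0.0176 for Sesn2 in fluvastatin against PBS. With 1 library left out, log2 values ran, for Asns, from -0.0467 to 0.0959 (fluvastatin against PBS), -0.0365 to 0.0947 (MBV against PBS) and -0.057 to 0.0518 (MBV against fluvastatin), and in the last comparison from -0.0223 to 0.0864 for Ddit3, -0.18 to 0.0273 for Ddit4, -0.0071 to 0.49 for Atf5 and -0.0388 to 0.29 for Ppp1r15a.

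Replicate numbers are shared by label only: deviations of same-numbered libraries correlated at -0.364 to 0.155, so they were not taken as pairs. With the number as a replicate block, 3320, 4690 and 9 genes passed in the 3 comparisons, with 3, 6 and 0 of the 10 genes (Trib3, FDR = 0.0776, and Sesn2, FDR = 0.0655, were lost with MBV), and Asns in MBV against fluvastatin came to 0.0016. Depth was least for Trib3, at 188 to 343 counts per library.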

Other observations

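Further lists are given with their counts beside the 24.8% of all genes that passed with fluvastatin and the 34.1% with MBV. A count near those shares, as for the hypoxia, mitochondrial and glial lists, is not a result about the list. Of 9 genes of the DLK pathway, which relays axon injury, 4 rose and 1 fell with each agent. Map3k12, which encodes DLK, rose by log2 0.33 with fluvastatin (FDR = 0.00114) and 0.41 with MBV (FDR = 0.000265), and Mapk8, which encodes JNK1, fell by 0.25 and 0.15 on the log2 scale. Of 12 glucocorticoid-responsive genes, 2 fell and 0 rose with fluvastatin, and 4 rose and 1 fell with MBV. Sgk1, a kinase induced by corticosteroids, was lower with both, at -0.77 (FDR = 0.00168) and -0.87 (FDR = 0.000526).

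Of 14 hypoxia-responsive genes, 1 rose and 2 fell with fluvastatin, and 3 rose and 2 fell with MBV. Vegfa, the vascular growth factor, rose by log2 0.52 and 0.60. Of 12 p53-responsive genes, 1 rose and 3 fell with fluvastatin and 3 rose and 3 fell with MBV, where Cdkn1a, the cell cycle inhibitor p21, rose by 0.78 (FDR = 0.00243). Of 12 genes that brake mTORC1 or sense nutrients, 2 rose and 2 fell with fluvastatin and 3 rose and 4 fell with MBV, and Depdc5, a subunit of the GATOR1 complex, rose with both, by 0.21 and 0.30. Of 10 mitochondrial stress genes Atf5 alone rose with each agent, while Yme1l1, a protease of the inner membrane, fell by 0.21 and 0.26 on the log2 scale and Hspa9, the matrix chaperone mortalin, by 0.20 and 0.16.

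Of 10 markers of Müller glia and astrocytes, 3 fell and 0 rose with each agent, among them Rlbp1, which is also in the pigment list. Of 10 markers of bipolar, amacrine and horizontal cells, 2 rose and 0 fell with fluvastatin and 1 rose and 1 fell with MBV. Slc6a9, counted above among the transporters, was 1 of the 2 that rose with fluvastatin and the 1 that rose with MBV. Of 10 microglia markers 2 fell with fluvastatin and 0 passed with MBV, and of 5 erythroid markers 3 rose with fluvastatin and 2 with MBV. These comparisons carry the same library sets as those above.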
